A study of Mus musculus with 12 samples.

Results

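The genes described are the 2 subunits of the GABA-B receptor, Gabbr1 and Gabbr2, the KCTD genes Kctd8, Kctd12 and Kctd16, whose proteins bind the receptor, and Kctd9, a KCTD family member outside the receptor-binding group. They were chosen by name, although the study had already named Kctd9 from these libraries, and are 6 of the 37310 genes counted in ventral hippocampus (vHPC). In neurons projecting from vHPC to nucleus accumbens (NAc), Gabbr2 was slightly higher and Kctd8 and Kctd9 were lower in ribosome-bound RNA than in whole-tissue RNA, while Gabbr1 and Kctd16 did not pass the test. None of the genes passed the adjusted test between FosB KO and WT. Kctd9 had the largest difference of the 5 genes tested, with every KO TRAP library below every WT TRAP library, as for 6.12% of all genes tested, and Kctd12 could not be measured from these counts.

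GABA-B receptors are metabotropic receptors for GABA, the main inhibitory transmitter of the brain. The GABBR1 protein binds GABA, the GABBR2 protein carries the receptor to the cell surface and activates Gi/o proteins, and both work as an obligate pair that opens GIRK potassium channels, closes presynaptic calcium channels and lowers cyclic AMP. KCTD8, KCTD12 and KCTD16 are auxiliary subunits that attach to GABBR2 and set the speed and desensitization of the response.

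All mice, on a C57BL/6 background, carried a Rosa26 allele for GFP-tagged ribosomal protein L10a that Cre switches on, and all received retrograde HSV-hEf1α-Cre in NAc 3 weeks before vHPC was collected. WT mice had intact FosB, and KO mice had a floxed FosB gene, so that Cre, and with it the deletion and the tag, reached cells whose axons had taken up the virus. TRAP libraries hold RNA that was pulled down with the tagged ribosomes, whereas input libraries hold RNA of the whole punch, from cells with and without Cre in unmeasured shares. WT pools 1 to 3 and KO pools 2 to 4 each gave 1 TRAP and 1 input library, 12 in all, from 3 mice per pool by the labels and up to one more by the study's methods.

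Libraries held 3416030 to 5614089 counts on genes, so that 3 counts corresponded to 0.534 to 0.878 CPM (counts scaled to library size). As a check of the labels, Fosb had 39.1 ± 6.65 CPM in WT TRAP and 23.2 ± 5.46 CPM in KO TRAP (SD, n = 3 pools). There, 3 of 3 KO libraries lay below all WT libraries, as for 6.12% of all genes tested. Fosb was also lower in KO input, at 16.0 ± 1.12 against 25.6 ± 4.11 CPM (SD, n = 3), and neither difference passed the adjusted test (adjusted p = 0.336 in TRAP and 1.00 in input, edgeR). The drop was not particular to TRAP, with mean log2(CPM + 0.5) differences of -0.75 in TRAP and -0.66 in input. The study reported almost no FosB expression in KO TRAP, which these counts did not show. The count covers the whole gene and so includes any exon that the deletion leaves. Why Fosb counts remained in KO was not tested. In the comparison over both genotypes, in which 20.0% of all genes were called higher in TRAP and 22.7% lower, all 10 astrocyte, all 10 oligodendrocyte and all 10 microglia markers were lower in TRAP, as were 9 of 10 GABA neuron markers, while 7 of 10 glutamate neuron markers were higher. Within WT, 8 of 10 GABA neuron markers were lower and 4 of 10 glutamate neuron markers higher (13.1% and 11.8% of all genes), and within KO 6 of 10 and 2 of 10 (15.9% and 13.2% of all genes). Over both genotypes, endothelial markers were lower for 2 of 3 tested, CA1 and subiculum markers were higher for 3 and lower for 1 of 7, and dentate, CA2 and CA3 markers were higher for 2 and lower for 3 of 7. WT input 1 had counts on 15678 genes, against at least 17255 in the other inputs, and KO TRAP 2 had 624 CPM over the GABA neuron markers, against 170 CPM in the lowest KO TRAP library and 273 to 408 CPM in WT TRAP.

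Gabbr1 (ENSMUSG00000024462.10) lies on mm9 at chr17:37182911-37212012, plus strand, with 23 merged exons of 7793 bases. Gabbr2 (ENSMUSG00000039809.9) lies at chr4:46675190-47004745, minus strand, with 19 merged exons of 5849 bases. Kctd8 (ENSMUSG00000037653.6) lies at chr5:69500524-69732948, minus strand, and Kctd9 (ENSMUSG00000034327.10) at chr14:68333994-68360367, plus strand. Stretches of 75 bases, taken every 10 bases along the exons of the 6 genes, had no other place on mm9 with up to 2 mismatches.

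The RefSeq promoter table (GRCm38.p6) held 4 of the 6 genes, namely Gabbr1, Gabbr2, Kctd8 and Kctd12. The 250 bases before the start are shown for Gabbr2 and Kctd8, because these were the receptor-related genes that passed the test in opposite directions between TRAP and input. Windows of 300 bases, from 250 before to 50 after the start, were searched on both strands for the AP-1 motif TGANTCA, the kind of site bound by FosB with a Jun partner, and for the CRE motif TGACGTCA, which holds no match to the first. Capitals mark a CRE match. The Gabbr2 stretch is chr4:46991715-46991964 and the Kctd8 stretch chr5:69341710-69341959, both on the minus strand.
Gabbr2: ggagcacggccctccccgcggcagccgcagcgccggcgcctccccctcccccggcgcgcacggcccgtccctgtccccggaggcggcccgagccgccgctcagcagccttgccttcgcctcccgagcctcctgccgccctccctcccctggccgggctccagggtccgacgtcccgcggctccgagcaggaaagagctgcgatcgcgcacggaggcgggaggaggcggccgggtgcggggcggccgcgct
Kctd8: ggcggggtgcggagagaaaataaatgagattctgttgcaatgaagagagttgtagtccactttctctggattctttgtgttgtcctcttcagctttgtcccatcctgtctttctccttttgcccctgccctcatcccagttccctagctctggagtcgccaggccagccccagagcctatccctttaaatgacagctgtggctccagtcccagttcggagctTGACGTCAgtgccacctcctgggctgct
No AP-1 match was found in the 4 windows, and 7.81% of the 32851 promoters in the table held one. The single CRE match began 28 bases before the Kctd8 start, and 1.79% of all promoters held this motif. GC content of the 250 bases was 53.6% for Kctd8 and 80.8% for Gabbr2, with Gabbr1 at 66.0% and Kctd12 at 77.6%. These matches describe letters and say nothing of binding in these cells.

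The first question was where the genes sit in vHPC-NAc neurons relative to the whole tissue. Over both genotypes, 3 of the 5 genes tested passed an adjusted p of 0.05 in edgeR's quasi-likelihood test, 1 higher and 2 lower in TRAP. Of all 13214 genes tested, 20.0% were called higher and 22.7% lower, so that a call by itself was common. In bulk RNA, fewer cells of a type and less RNA per cell cannot be told apart.

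**Figure D1:**
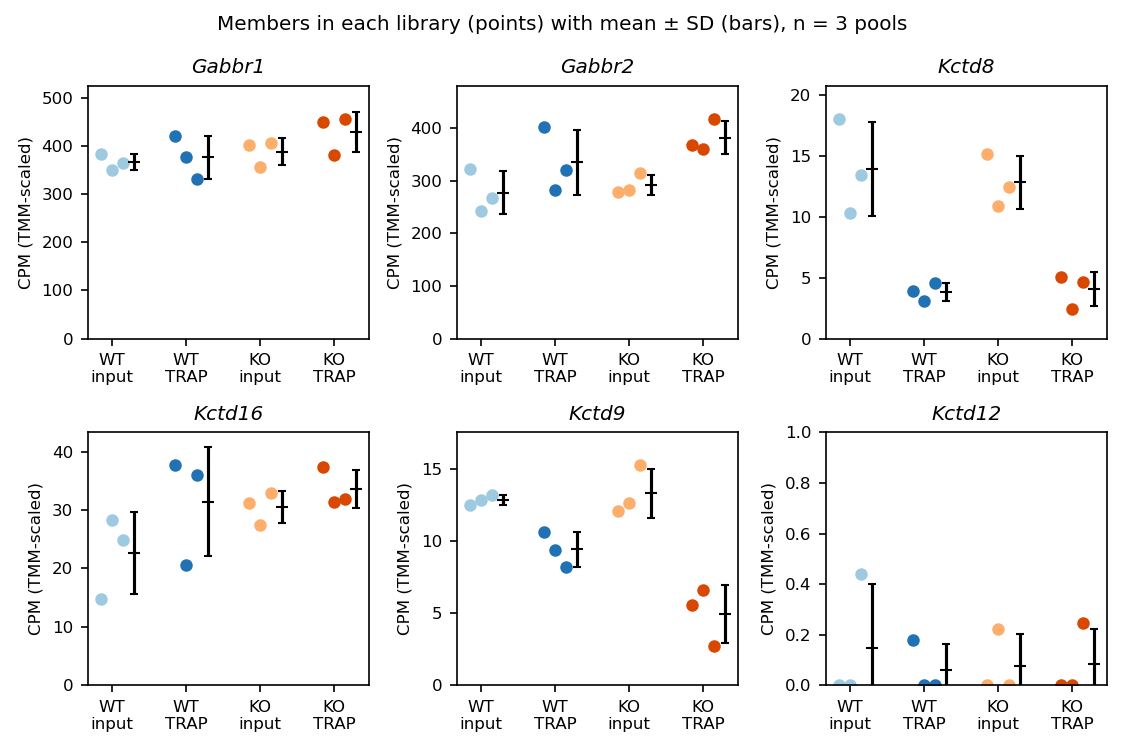
CPM, scaled with TMM factors, of the 6 genes (panels) in each of 12 libraries (points), with mean ± SD of 3 pools beside each group. Kctd8 libraries of TRAP lie below those of input in both genotypes, Kctd9 is lowest in KO TRAP, and Kctd12 stays under 0.5 CPM throughout.

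Gabbr1 was abundant and nearly level. WT TRAP libraries had 419.6, 376 and 332 CPM in pools 1, 2 and 3, and WT input libraries 383, 349.7 and 364 CPM. KO TRAP libraries had 449.7, 380.1 and 456 CPM in pools 2, 3 and 4, and KO input libraries 403, 356 and 405 CPM. The groups overlapped in both genotypes. TRAP exceeded input in 5 of 6 pools, WT pool 3 being the exception, and the log2 fold change over both genotypes was 0.09 ± 0.07 (SE, adjusted p = 0.310, edgeR).

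Gabbr2 was higher in TRAP in every pool. WT TRAP had 403, 283 and 320.2 CPM and WT input 322, 242 and 267 CPM in pools 1, 2 and 3. KO TRAP had 369, 360.1 and 418 CPM and KO input 279, 283 and 314 CPM in pools 2, 3 and 4. In KO the TRAP libraries all lay above the input libraries, as for 20.7% of genes, whereas in WT the ranges overlapped. The level was 1.26 times higher in TRAP over both genotypes (95% interval 1.12 to 1.42), a log2 fold change of 0.33 ± 0.08 (SE, adjusted p = 0.00163, edgeR). It was higher in 6 of 6 pools, which gave an exact sign-flip p of 0.03125, the smallest that 6 pools allow, and 18.2% of all genes tested were higher in all 6. Within KO the log2 fold change was 0.38 ± 0.10 (SE, adjusted p = 0.00518, edgeR), where 13.2% of genes were called higher, and without KO pool 4 it was 0.37, about as large, with an adjusted p of 0.0578. Within WT it was 0.29 ± 0.14 (SE) with an adjusted p of 0.143 in edgeR, against 11.8% of genes called higher, and with TRAP and input of the same pool paired as a block it was 0.28 with an adjusted p of 0.0408. The enrichments in WT and KO were not shown to differ (log2 difference 0.11, 95% interval -0.24 to 0.46).

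Per kilobase of summed exons, Gabbr2 stood at 1.19 times Gabbr1 in WT TRAP and 1.19 times in KO TRAP, and at 1.01 and 1.00 times in WT and KO input. The order of the subunits depended on the length used. Divided by mean transcript length, which is 1804 bases for Gabbr1 with its 12 annotated transcripts and 3079 bases for Gabbr2, the same ratio was 0.52 in both TRAP groups and 0.44 in both inputs. Which subunit is the more abundant is therefore not settled by these counts. The relative change of the ratio from input to TRAP is the same by either length, provided that transcript use is equal, which was not examined. Per summed exons, WT TRAP ran from 1.00 to 1.29 and WT input from 0.92 to 1.12, which overlap. KO TRAP ran from 1.09 to 1.26 and KO input from 0.92 to 1.06.

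Kctd8, whose protein keeps the receptor response sustained, had the largest difference between TRAP and input of the 5 genes. WT TRAP held 3.91, 3.05 and 4.51 CPM and WT input 18.0, 10.3 and 13.4 CPM in pools 1, 2 and 3. KO TRAP held 5.02, 2.44 and 4.64 CPM and KO input 15.2, 10.9 and 12.4 CPM in pools 2, 3 and 4. TRAP and input did not overlap in either genotype, as for 20.8% of genes lower in WT TRAP and 21.7% lower in KO TRAP. The level was 3.39 times lower in TRAP over both genotypes (95% interval 2.35 to 4.89), a log2 fold change of -1.76 ± 0.26 (SE, adjusted p = 2.30e-06, edgeR), and it was lower in 6 of 6 pools (exact p = 0.03125, with 20.4% of all genes lower in all 6). The log2 fold change was -1.84 ± 0.39 in WT (adjusted p = 0.00205, 13.1% of genes called lower) and -1.68 ± 0.36 in KO (adjusted p = 0.00118, 15.9% called lower, edgeR, SE). TRAP libraries held 10 to 22 Kctd8 counts each, so counting error adds to the spread between them. Markers of other cells fell alongside, the summed astrocyte markers running from 2099 to 2526 CPM in input and from 341 to 413 CPM in TRAP, and the microglia markers from 89.1 to 171 CPM in input and from 8.22 to 17.9 CPM in TRAP, where P2ry12 was at 0 counts in all 3 KO libraries. Their part in the Kctd8 difference was not tested.

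Kctd16, whose protein like KCTD8 gives sustained responses, was more abundant than Kctd8 and varied between WT pools. Kctd16 (ENSMUSG00000051401.5) lies on mm9 at chr18:40418015-40690757, plus strand, in a model of 1284 bases that ends with the stop codon, so that reads beyond it were not counted. WT TRAP had 37.7, 20.7 and 36.1 CPM and WT input 14.8, 28.4 and 24.9 CPM in pools 1, 2 and 3. KO TRAP had 37.4, 31.4 and 32.0 CPM and KO input 31.3, 27.5 and 32.9 CPM in pools 2, 3 and 4. TRAP and input overlapped in both genotypes, with WT input 1 lowest of all 12 libraries. The log2 fold change over both genotypes was 0.30 ± 0.16 (SE, adjusted p = 0.144, edgeR), higher in 4 of 6 pools (exact p = 0.3125), and leaving out WT pool 2 gave 0.42 with an adjusted p of 0.0435. Without WT pool 1, which holds the input library with the fewest genes, it was 0.13.

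Per kilobase, Kctd16 exceeded Kctd8 by 21.6 ± 3.81 times in WT TRAP and 24.1 ± 8.80 times in KO TRAP, against 4.80 ± 2.56 times in WT input and 6.40 ± 0.822 times in KO input (SD, n = 3). Every TRAP library thus had a higher ratio than every input library. This partly restates the lower Kctd8 level in TRAP, since Kctd16 itself did not pass, and the TRAP ratios rest on 10 to 22 Kctd8 counts per library. By mean transcript length the ratios were 14.7, 16.4, 3.27 and 4.36 times in the same order. Gabbr1 per kilobase was 2.11 times Kctd16 in WT TRAP, 2.11 times in KO TRAP, 2.90 times in WT input and 2.09 times in KO input, but 9.14, 9.11, 12.5 and 9.05 times by mean transcript length.

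Kctd12, whose protein speeds desensitization of the receptor, was counted 0 to 2 times per library. Its model at chr14:103377437-103381745 on mm9, minus strand, is annotated as a pseudogene in the Gencode release used, and 99.9% of its 3805 exon bases are shared with Gm17446, a non-coding gene on the other strand. Gm17446 had 0 or 1 counts in 11 libraries and 11 counts in KO TRAP 2. Of 214 genes with at least 95% of exon bases shared with the other strand, 0.935% averaged over 3 counts per library, against 35.8% of 31879 genes that shared none. The share was 64.3% for 4848 genes with less than 50% overlap and 19.5% for 369 genes in between. These shares were not matched for gene type or expression, and the part of the overlap in the low Kctd12 counts was not tested. At 0 to 2 counts per library the level of Kctd12 was not measured, and the gene passed the expression filter of no comparison.

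**Figure D2:**
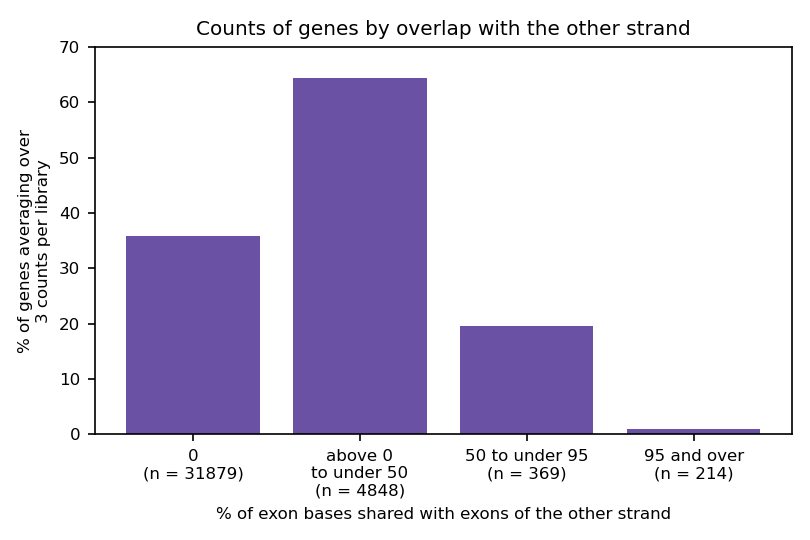
Percent of genes that averaged over 3 counts per library (bars, from 0), by the share of exon bases that also belong to exons on the other strand, with the number of genes under each bar. The bar for genes like Kctd12, at 0.935%, is far below the 35.8% of genes without overlap.

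Kctd9 was lower in TRAP. WT TRAP had 10.7, 9.40 and 8.23 CPM and WT input 12.5, 12.8 and 13.2 CPM in pools 1, 2 and 3. KO TRAP had 5.58, 6.58 and 2.69 CPM and KO input 12.1, 12.7 and 15.3 CPM in pools 2, 3 and 4. TRAP lay below input without overlap in WT (as for 20.8% of genes) and in KO (21.7%), and KO TRAP lay below WT TRAP without overlap (6.12%). Over both genotypes the level was 1.87 times lower in TRAP (95% interval 1.32 to 2.64), a log2 fold change of -0.90 ± 0.24 (SE, adjusted p = 0.00357, edgeR), lower in 6 of 6 pools (exact p = 0.03125, with 20.4% of all genes lower in all 6). Within KO it was -1.44 ± 0.35 (SE, adjusted p = 0.00340, edgeR), and without KO pool 4, the pool with the lowest TRAP level, it was -1.03 with an adjusted p of 0.104. Within WT it was -0.43 ± 0.31 (SE) and did not pass (adjusted p = 0.348, edgeR).

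**Figure D3:**
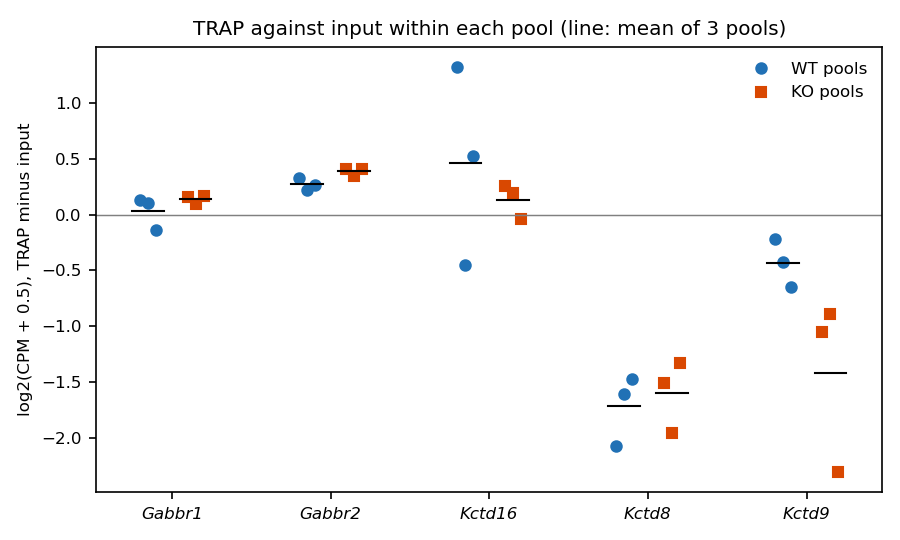
Log2(CPM + 0.5) of TRAP minus input in each of 6 pools (points, WT circles and KO squares; lines, mean of 3 pools) for the 5 genes with measurable counts. Gabbr2 is above 0 and Kctd8 and Kctd9 are below 0 in all 6 pools.

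The study used these libraries to ask what loss of FosB changes in these neurons. Between KO and WT TRAP, 0 of the 5 genes passed the adjusted test, where 8 of 11727 genes were called (0.0682%), and 1 of the 5, Kctd9, had an unadjusted p under 0.05, against 6.04% of all genes. DESeq2 gave 0 called as well. The TRAP libraries in this comparison also entered the comparison with input, so both rest on shared samples.

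Kctd9 was 1.91 times lower in KO TRAP (95% interval 1.05 to 3.47), a log2 fold change of -0.93 ± 0.42 (SE, unadjusted p = 0.0348, adjusted p = 0.799, edgeR). Its counts were 60, 40 and 31 in WT TRAP and 20, 27 and 11 in KO TRAP. All 3 KO libraries were below all 3 WT libraries, as was the case for 6.12% of all genes, and the exact permutation p was 0.10, the smallest that 3 against 3 pools allow. Without KO pool 4 the log2 fold change was -0.63 (unadjusted p = 0.163), and with the pool number as a block it was -0.53 (unadjusted p = 0.330, edgeR), although equal numbers stand for different mice in WT and KO. Without KO pool 2, the one high in GABA neuron markers, it was -1.02 (unadjusted p = 0.0410, edgeR). Summed astrocyte markers ran from 341 to 413 CPM in WT TRAP and from 342 to 383 CPM in KO TRAP, and summed microglia markers from 8.22 to 17.9 and from 9.02 to 13.7 CPM. Single markers, named after their values were seen, did separate, and the astrocyte marker Aldh1l1 had 5.87 to 10.7 CPM in WT TRAP and 1.46 to 4.64 CPM in KO TRAP (log2 fold change -1.57 ± 0.51, SE, unadjusted p = 0.00552, adjusted p = 0.576, edgeR). KO TRAP also lay below WT TRAP without overlap for the astrocyte marker Aldoc and the GABA neuron marker Npy. These are among the lowest of lists whose other members differed in both directions. The 9 tested astrocyte markers had KO over WT log2 fold changes from -1.57 to 0.23 (median -0.09), with Aqp4 highest, and the 9 tested GABA neuron markers had values from -1.35 to 1.43 (median -0.11), with Slc32a1 highest. None of them passed the adjusted test (edgeR). The part of other cells in the Kctd9 difference was not tested. The study had picked Kctd9 from these same libraries, so this is no independent evidence of its direction. By qPCR in Neuro2A cells that overexpressed ΔFosB, the study listed the change of Kctd9 as not significant.

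In input, Kctd9 was level between genotypes, at 13.3 ± 1.69 CPM in KO and 12.8 ± 0.370 CPM in WT (SD, n = 3), with a log2 fold change of 0.06 (95% interval -0.49 to 0.60). The difference between the genotypes in TRAP over input was -0.99 ± 0.46 on the log2 scale (SE, unadjusted p = 0.0417, adjusted p = 1.00, edgeR). No gene of the 5 passed the adjusted test of this difference, where 0.00757% of 13214 genes did, and 2.71% had an unadjusted p under 0.05.

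The receptor subunits did not pass between genotypes. In TRAP, the KO over WT log2 fold change was 0.19 for Gabbr1 (95% interval -0.02 to 0.39, unadjusted p = 0.0718) and 0.19 for Gabbr2 (95% interval -0.05 to 0.42, unadjusted p = 0.117, both edgeR). KO and WT libraries overlapped for both. Leaving out one pool moved Gabbr1 between 0.11 and 0.28 and Gabbr2 between 0.08 and 0.35, the highest values being those without WT pool 1 (unadjusted p = 0.0124 and 0.00242, adjusted p = 0.426 and 0.256, edgeR). The lowest values were those without WT pool 3 for Gabbr1 and without WT pool 2 for Gabbr2. Of 14 alternatives of processing and pools, 3 gave Gabbr1 and 1 gave Gabbr2 an unadjusted p under 0.05 (edgeR or DESeq2), and 0 passed after adjustment.

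The KCTD partners did not differ detectably either, with wide intervals. Kctd8 in TRAP had a log2 fold change of 0.07 with a 95% interval from -1.02 to 1.16, and its sign turned when WT pool 2, KO pool 2 or KO pool 4 was left out. Kctd16 in TRAP had 0.09 with a 95% interval from -0.35 to 0.53, and its sign turned without WT pool 2. A p that misses the threshold at these depths does not show that levels were equal.

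In input, 0 of the 5 genes passed between KO and WT, with 4 of 12816 genes called (0.0312%), and none had an unadjusted p under 0.05 in edgeR with the main settings, against 2.89% of all genes. DESeq2 also called 0 of the 5. Kctd16 had the largest difference, a log2 fold change of 0.42 (95% interval -0.04 to 0.88, unadjusted p = 0.0726), and without WT pool 1, whose input library had the lowest Kctd16 level, it was 0.21. Without WT pool 2 it was 0.61 (unadjusted p = 0.0226, adjusted p = 0.907), and with no expression filter it was 0.42 (unadjusted p = 0.0459, adjusted p = 0.922, edgeR). With the pool number as a block it was 0.14 (unadjusted p = 0.500, edgeR). Gabbr1 and Gabbr2 had log2 fold changes of 0.09 and 0.08, and Kctd8 of -0.11.

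**Figure D4:**
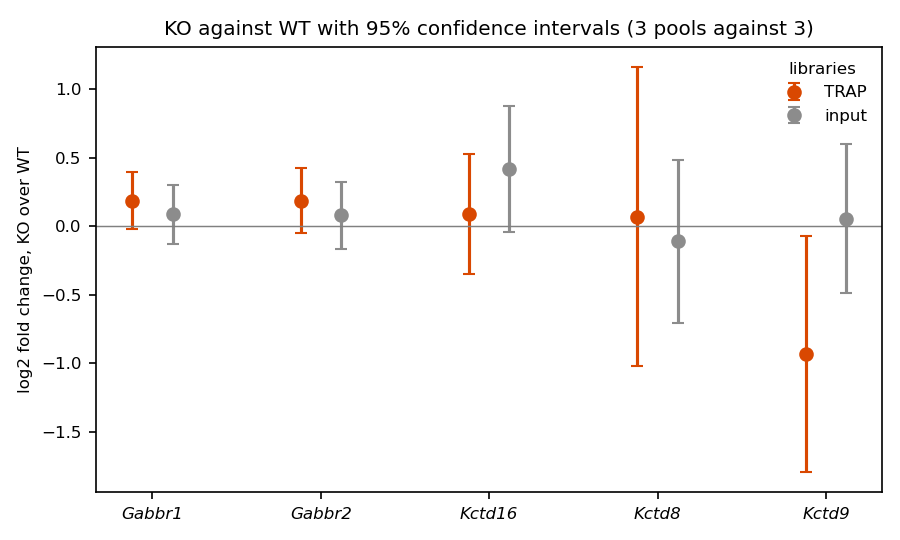
Log2 fold change of KO over WT (points) with 95% confidence intervals (bars) in TRAP and in input libraries, 3 pools against 3, from edgeR. The TRAP interval of Kctd9, -1.80 to -0.07, is the one that does not cross 0, and this does not hold after adjustment over all genes.

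The rest of the pathway was read in the same comparison of TRAP with input over both genotypes, in which 20.0% of all genes were called higher and 22.7% lower. Of 20 other KCTD family genes, 17 were tested, 4 were higher and 0 were lower, with a median log2 fold change of 0.16 against -0.01 over all genes tested. The highest was Kctd13, at 0.67 ± 0.08, whose protein is a cullin 3 adaptor, and the smallest called was Kctd3, at 0.27 ± 0.09 (SE). Kctd12b, another receptor-binding relative, named after its values were seen, had 4 to 40 counts per library and a log2 fold change of 0.55 ± 0.35 (SE, adjusted p = 0.212, edgeR).

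The lists downstream of the receptor are short and are read against the same 20.0% higher and 22.7% lower of all genes. There, 1 of 5 effector channel genes was lower and none higher, the GIRK subunit gene Kcnj6, at -0.48 ± 0.13. Among 12 genes of Gi/o and beta-gamma subunits, 4 were higher and 2 lower, from Gnb5 at 0.73 ± 0.07 to Gnai2 at -0.53 ± 0.07. Of 5 genes for RGS proteins, which shorten G protein signals, or for the protein that anchors them, 1 was higher, Rgs4 at 0.33 ± 0.07, and 2 lower, with Rgs8 lowest at -0.33 ± 0.13. Of 6 adenylyl cyclases, the enzymes that make cyclic AMP, 3 were lower and 0 higher, from Adcy1 at -0.51 ± 0.16 to Adcy5 at -0.24 ± 0.09 (SE). Within WT, 1 cyclase was lower and 0 higher (13.1% and 11.8% of all genes), and within KO 0 were lower and 1 was higher (15.9% and 13.2% of all genes), so that counts of 1 of 6 lie near the shares of all genes. The one higher within KO was Adcy9, at 0.35 ± 0.12 (SE, adjusted p = 0.0356, edgeR). The difference between genotypes for Adcy9 was 0.36 ± 0.25 (SE, unadjusted p = 0.162, edgeR).

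Genes for proteins that bind or traffic the receptor counted 9 higher and 2 lower in TRAP of 14 tested, against 20.0% and 22.7% of all genes. The highest was Nsf, a fusion ATPase, at 0.74 ± 0.07, and the lowest was Ddit3, a stress transcription factor, at -1.09 ± 0.17 (SE). All 7 tested genes of GABA synthesis, transport and breakdown were lower over both genotypes and within WT (13.1% of all genes), and 4 of 7 within KO (15.9% of all genes). The smallest difference over both genotypes was that of Abat, the enzyme that degrades GABA, at -0.57 ± 0.11 (SE), and 29.9% of Abat exon bases are shared with a gene on the other strand. Summed GABA neuron markers ran from 792 to 942 CPM in input and 170 to 624 CPM in TRAP, but Gad1, Gad2 and Slc32a1 are in both lists, so the sum partly restates the same change, and the part of GABA neurons was not tested. Between KO and WT, no gene of these lists passed the adjusted test in TRAP or input. Single genes, named after their values were seen, did separate in TRAP in either direction. The cyclase gene Adcy3 had 33.6 to 43.7 CPM in WT and 12.3 to 25.4 CPM in KO, a log2 fold change of -1.03. It separated in input too, at 34.1 to 37.7 CPM in WT and 23.0 to 27.2 CPM in KO (as for 4.18% of genes). The KCTD relative Shkbp1 had 1.60 to 2.35 CPM in WT TRAP and 3.66 to 5.58 CPM in KO TRAP. Of all genes tested, 6.12% lay lower and 5.74% higher in KO TRAP without overlap.

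**Figure D5:**
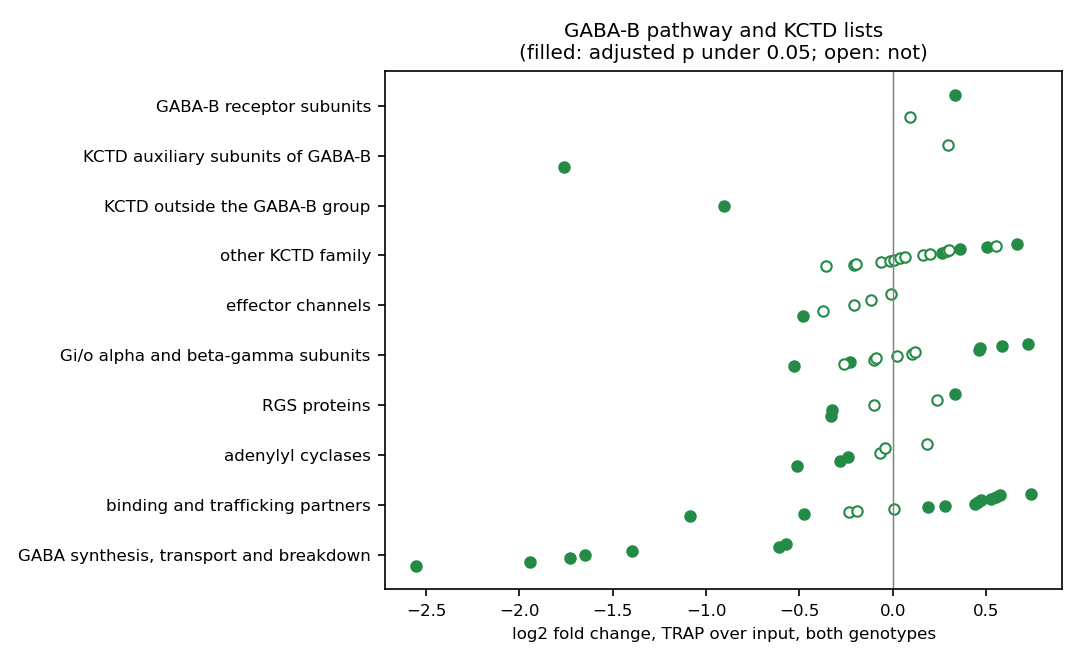
Log2 fold change of TRAP over input over both genotypes (horizontal axis) for each tested gene of 10 lists (rows), filled where the adjusted p was under 0.05. All 7 genes of GABA handling lie below 0, whereas the receptor subunits lie above 0 and the KCTD partners on both sides.

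Across the 12 libraries, the genes whose log2 CPM ran most like each of the 5 were found by Pearson correlation over 13213 other genes, as a description in which the TRAP and input contrast dominates. Gabbr1 ran most like Sez6l (r = 0.914) and Bsg (0.910), and Gabbr2 most like Ptprf (0.966), Ptpro (0.953) and Nptn (0.946). Kctd8 ran most like Aif1 (0.977), which is a microglia marker, Itih5 (0.975) and Bin2 (0.974). Kctd16 ran most like Mrpl1 (0.923), Sec22a (0.914) and Gm8399 (0.911), and Kctd9 most like Crot (0.923), Lgals1 (0.916) and Megf10 (0.905). Among the genes themselves, Gabbr1 and Gabbr2 had r = 0.701, Kctd8 and Kctd9 had r = 0.622, and Gabbr2 and Kctd9 had r = -0.704.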

How the data were processed

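Ribosome-bound (TRAP) and input RNA of vHPC from 6 pools was sequenced after a stranded total RNA preparation. The authors deposited raw counts per gene and library, from TopHat alignments to mm9 and HTSeq-count with the Gencode vM1 annotation. The strand setting and versions are not given in the sources used here. A label without the word input was read as TRAP.

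The test was edgeR 4.0.16 under R 4.3.3 (default expression filter, TMM scaling, robust quasi-likelihood test), with Benjamini-Hochberg adjustment over all genes tested. CPM are TMM-scaled over 12 libraries. SE is the log2 fold change over the root of F, and intervals are 95%. Exact two-sided permutation tests used log2(CPM + 0.5). Whether pools came from separate litters is not stated, so p-values measure the spread between pools. Steps were tested on simulated data. Exon stretches of 75 bases, 10 bases apart, were aligned to mm9 with minimap2 2.31, allowing 2 mismatches.

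TRAP and input of the same pool come from the same mice, and their deviations from group means correlated by 0.0582 to 0.106. Alternatives were RLE and total-count scaling, no filter, a mean of at least 10 counts, no mitochondrial genes, non-robust edgeR, DESeq2 1.42.0, a pool block, leaving out each pool, mean transcript length and a pseudocount of 1. Named genes are the 6 genes, the extremes of each list among those that passed, and the 3 nearest genes of each, of which some are not reported here. Kctd12b, Shkbp1, Adcy3, Adcy9 and the single markers of other cells were named outside this rule, after their values were seen. The genes and lists were chosen with earlier results of these data known.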

Additional observations from a re-analysis of the deposited data

Results flagged for a closer look

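The Gabbr1 difference of TRAP from input in WT pool 3 was -0.13 on the log2(CPM + 0.5) scale, while the other 5 pools lay between 0.09 and 0.17. The gap to its neighbour was 0.750 of the whole range, above the critical value of 0.625 for 6 values. Of 5 genes examined this way, Gabbr1 was the only one past it, and chance marks about 1 in 20 such sets of values.

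The KO minus WT difference in TRAP over input for Kctd9 was -0.99 on the log2 scale, with an unadjusted p of 0.0417 and an adjusted p of 1.00 in edgeR. Of all genes tested, 2.71% had an unadjusted p under 0.05, and the study had already named Kctd9 from these libraries. All 6 pools were lower in TRAP. Under the alternatives the value ran from -1.31 to -0.58 and the unadjusted p from 0.0227 to 0.262.

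Gm17446, the gene opposite Kctd12, had 11 counts in KO TRAP 2 and 0 or 1 in the other 11 libraries.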

How the results depend on the processing

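Over both genotypes, Gabbr2, Kctd8 and Kctd9 kept their calls between TRAP and input under all 14 alternatives. Within WT, the replicate block, pairing libraries of a pool, raised the count of called genes from 1 to 2 by adding Gabbr2, and it changed no other call. Within KO, leaving out one pool gave 1 to 3 called genes, the lowest without KO pool 4, where Gabbr2 had 0.37 and Kctd9 -1.03. The adjusted counts between genotypes stayed at 0 under every alternative. Between KO and WT, equal pool numbers (2 and 3) stand for different mice, with deviations correlated by -0.0697 to 0.00294.

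By mean transcript length, the mean Gabbr2 over Gabbr1 ratio turned from 1.10 to 0.483 and Gabbr1 over Kctd16 moved from 2.30 to 9.96. Of 405 other values, 388 kept direction and side of the threshold, and the 13 whose sign turned had adjusted p of 0.959 or more. For Kctd8 the KO over WT value was -0.062 in TRAP and 0.13 in input with the replicate block, and for Kctd9 in input -0.072. Leaving out one pool, values ran from -0.11 to 0.34 (Kctd8, TRAP), -0.29 to 0.11 (Kctd8, input), -0.13 to 0.25 (Kctd16, TRAP), -0.0097 to 0.21 (Gabbr2, input) and -0.056 to 0.13 (Kctd9, input). For the difference of enrichment they ran from -0.053 to 0.34 (Kctd8) and -0.74 to 0.014 (Kctd16), and for Gabbr1 in WT from -0.0016 to 0.12. The cause was not tested.

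Over all genes, calls between KO and WT TRAP numbered 8, but 41 with no filter, 18 in DESeq2 and 5 to 20 leaving out one pool. In input they numbered 4, but 19 with no filter, 8 in DESeq2, 20 with the block and 1 to 5 leaving out one pool. For TRAP against input in WT, 3096 fell to 1289 without WT pool 3 and 1871 without WT pool 2, and in KO 3626 fell to 1982 without KO pool 4. With 10 to 22 Kctd8 and 11 to 60 Kctd9 counts per TRAP library, counting error adds to the spread of both genes.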
